A study of Homo sapiens with 23 samples.

Results

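This account covers the 8 RNA-seq libraries of SUDHL5 cells that received the control compounds Neg1 or Neg2, out of 23 libraries in the whole series. The members were chosen by the compound and time in their sample titles. They are 2 libraries each of Neg1 at 30 nM for 2 h, Neg2 at 30 nM for 2 h, Neg1 at 30 nM for 4 h and Neg2 at 30 nM for 4 h. The 4 libraries at 4 h were compared with the 4 at 2 h, which asks how far the transcriptome of these cells moved over that interval without the active molecule. SUDHL5 is an established line of human diffuse large B-cell lymphoma, of the germinal centre subtype. All wells held the same final share of DMSO (0.1%), the solvent of the compounds. Vehicle alone was harvested at 4 h (3 libraries, here called DMSO), and CDK-TCIP1, the active bivalent molecule of the study, was given at 30 nM for 2 h (4 libraries) and 4 h (3 libraries). The chemical difference between Neg1, Neg2 and CDK-TCIP1 is not given in the labels. The cells came from 1 line, replicates may or may not be separate cultures as far as the labels go, and no untreated or 0 h sample was analysed here. Hours since plating, hours since compound addition and clock time of harvest therefore cannot be told apart.

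Cells that are counted, diluted and plated into medium meet fresh serum, glucose and amino acids, a change of density and often a short fall in temperature. Genes known to answer such handling within hours include the immediate early genes (FOS, EGR1, JUN), the glucose sensor target TXNIP, targets of the stress factor ATF4, heat shock and cold-inducible genes, and the sterol genes governed by SREBP2. Short-lived mRNAs such as these leave and regain their steady level fast, whereas cell cycle genes shift only if the culture moves between phases.

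The depth of the 8 libraries ran from 17396484 to 22755241 estimated counts, and each replicate pair differed beyond counting noise (chi-square over its degrees of freedom, 4.32 to 13.5). The largest of these values belonged to the Neg2 pair at 2 h. On the first principal component (34.9% of the variance of the 8 libraries) Neg2 2 h replicate 1 lay at -22.3 and the other 3 libraries at 2 h between -3.77 and -0.27, while the 4 at 4 h lay between 2.48 and 10.7. The times therefore did not overlap on this component, which was computed from these libraries and was not tested. Neg2 2 h replicate 1 library also had the largest share of counts in mitochondrial mRNAs (5.84%) and the smallest in the listed ribosomal protein genes (5.21%) of the 8. Fold changes printed below that moved by more than their standard error when it was left out are also given without it. The labelled cell type matched its markers: 8 B cell markers summed to 2331 to 2482 CPM (counts scaled to a common library size after TMM) per library at 2 h and 2361 to 2454 CPM at 4 h, and 8 germinal centre markers to 1846 to 1922 and 1804 to 1916 CPM. Markers of myeloid cells summed to 1.60 to 2.03 CPM at 2 h and 1.25 to 1.57 CPM at 4 h over 12 genes, with ELANE, MPO, S100A8 and S100A9 at 0, and those of erythroid cells and platelets to at most 0.643 CPM over 11 genes, with HBA2, HBB, GP9 and PPBP at 0. Of the 17 T and NK cell markers, CD2, CD5, CD7 and GZMB were at 0 and the sum of 131.3 to 143 CPM was led by TRAC. The 12 markers of epithelium and fibroblasts summed to 49.1 to 55.1 CPM at 2 h and 43.9 to 48.5 CPM at 4 h, led by DCN, with COL3A1 at 0.

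**Figure D1:**
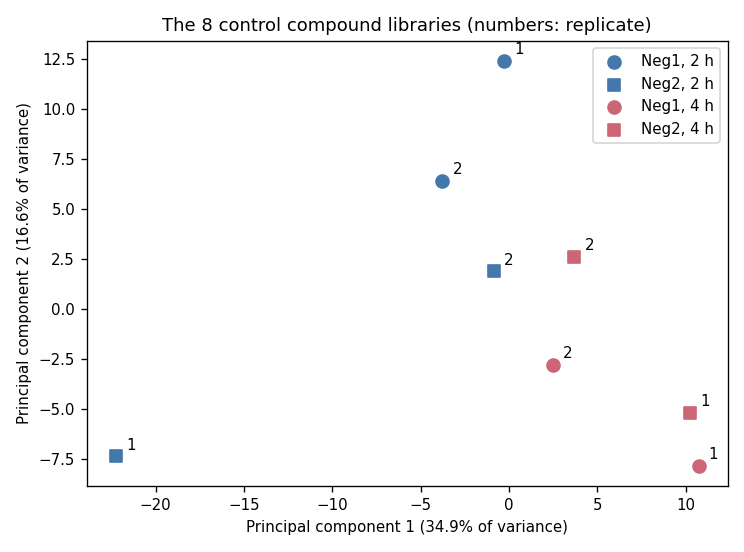
First against second principal component of the log2 CPM of the 8 control compound libraries (component scores, with the share of variance on each axis; colour gives the time, shape the compound, the number the replicate). Neg2 2 h replicate 1 sits alone at -22.3 on the first component, and the 4 libraries at 4 h lie between 2.48 and 10.7.

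With the control compounds, gene levels at 4 h lay close to those at 2 h, and none of 17743 genes tested was called between the times (0.0%, edgeR quasi-likelihood test with an adjusted p under 0.05), and the smallest adjusted p was 0.435. At an unadjusted p under 0.05 there were 1394 genes (7.86%), 752 higher at 4 h (4.24%) and 642 lower (3.62%). DESeq2 called 5 of 17740 genes (0.0282%), all lower at 4 h: KLF12, EBF1, IPO5 and the pseudogenes RPL21P16 and MTATP6P1. Among the 10086 genes whose average log2 CPM was 2 or more, the median standard error of the log2 fold change was 0.077, and 91.4% had a 95% interval that lay wholly within 0.5 of no difference on the log2 scale. The fold change itself lay within 0.25 of 0 for 95.2% of these genes and within 0.5 for 99.4%, and 10 genes reached 1. In bulk RNA, fewer cells with a transcript and less of it per cell cannot be told apart. Low genes were measured less well: the median standard error over all 17743 genes was 0.15.

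**Figure D2:**
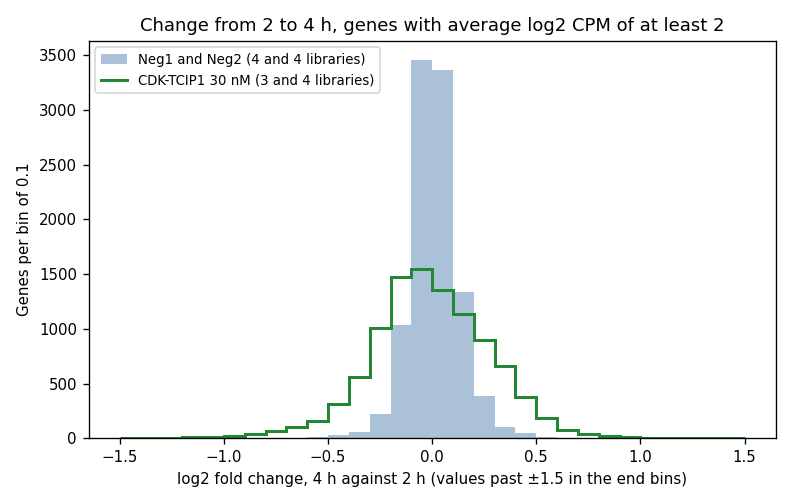
Number of genes in each bin of 0.1 of the log2 fold change from 2 to 4 h, for the 10086 genes whose average log2 CPM was 2 or more (filled: Neg1 and Neg2, 4 against 4 libraries; outline: CDK-TCIP1 at 30 nM, 3 against 4 libraries). The control compounds hold 95.2% of genes within 0.25 of no difference and CDK-TCIP1 65.3%.

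Since no gene was called, the genes described first are the protein-coding ones of smallest p in each direction. They were chosen by this comparison and are given as values. The choice was limited to genes in which the 4 libraries at 4 h did not overlap the 4 at 2 h. That separation in these 12 genes was therefore fixed by their choice. Complete separation of this kind was seen for 287 genes higher at 4 h (2.85%) and 257 lower (2.55%) of the 10086 genes at the level above, and for 417 (2.35%) and 366 (2.06%) of all genes tested, so it was not particular to them.

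The 6 genes lower at 4 h were KLF12, EBF1, IPO5, MLLT10, SIRT1 and GPR89B. KLF12, a Krüppel-like zinc finger repressor (ENSG00000118922, chr13:73686089-73995056, minus strand), was at 109.6 and 121 CPM with Neg1 and 125 and 105 CPM with Neg2 at 2 h, and at 99.1 and 96.8 CPM with Neg1 and 94.7 and 91.3 CPM with Neg2 at 4 h. Its log2 fold change was -0.27 ± 0.054 (95% interval -0.38 to -0.16; edgeR adjusted p 0.435), and -0.20 without Neg2 2 h replicate 1. EBF1, the early B cell factor that sets B lineage identity (ENSG00000164330, chr5:158695916-159099761, minus strand), had 62.5 and 55.6 CPM with Neg1 and 68.4 and 58.8 CPM with Neg2 at 2 h. At 4 h it had 47.2 and 55.01 CPM with Neg1 and 45.7 and 49.6 CPM with Neg2, a log2 fold change of -0.31 ± 0.066 (interval -0.45 to -0.18). With DMSO at 4 h EBF1 stood at 60.1 ± 3.73 CPM (SD, n = 3), a level inside its 2 h range with the control compounds and above their 4 h range. KLF12 with DMSO was at 103 ± 1.598 CPM, between the ranges of the 2 times.

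The nuclear import receptor IPO5 (ENSG00000065150, chr13:97953658-98024297, plus strand) measured 382 and 365 CPM with Neg1 and 387 and 387 CPM with Neg2 at 2 h against 300.2 and 353 CPM with Neg1 and 319.9 and 296 CPM with Neg2 at 4 h, a log2 fold change of -0.26 ± 0.059. MLLT10, also called AF10 and a partner of the H3K79 methyltransferase DOT1L (ENSG00000078403, chr10:21524675-21743630, plus strand), gave 48.2 and 47.7 CPM with Neg1 and 50.2 and 47.5 CPM with Neg2 at 2 h. Its 4 h values were 43.2 and 38.96 CPM with Neg1 and 39.1 and 29.2 CPM with Neg2, with a log2 fold change of -0.37 ± 0.085, and the lowest of them was Neg2 replicate 2. The deacetylase SIRT1 (ENSG00000096717, chr10:67884669-67918390, plus strand) spanned 83.2 to 90.6 CPM at 2 h and 74.2 to 78.4 CPM at 4 h, which is a narrow gap at a log2 fold change of -0.19 ± 0.050. GPR89B, a Golgi pH regulator (ENSG00000188092, chr1:147928393-147993521, plus strand), spanned 11.8 to 14.6 and 9.26 to 11.7 CPM (log2 fold change -0.43 ± 0.11), and its near-identical copy GPR89A makes its estimated counts uncertain. The DMSO means at 4 h were 381 ± 25.5 CPM for IPO5, 46.04 ± 1.74 CPM for MLLT10 and 83.9 ± 1.65 CPM for SIRT1 (SD, n = 3), all nearer to the 2 h than to the 4 h mean with the control compounds (380.4 ± 10.3 and 317 ± 25.8, 48.4 ± 1.25 and 37.6 ± 5.95, and 86.5 ± 3.36 and 75.6 ± 1.93 CPM, SD, n = 4).

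The genes higher at 4 h had varied roles and mostly lower levels. SCPEP1, a serine carboxypeptidase (ENSG00000121064, chr17:56978105-57006768, plus strand), stood at 17.6 and 17.1 CPM with Neg1 and 15.6 and 15.02 CPM with Neg2 at 2 h. It stood at 22.9 and 18.96 CPM with Neg1 and 22.5 and 20.2 CPM with Neg2 at 4 h, a log2 fold change of 0.37 ± 0.078 (interval 0.21 to 0.53; edgeR adjusted p 0.435). RXRB, the beta form of the retinoid X receptor (ENSG00000204231, chr6:33193588-33200688, minus strand), measured 58.6 and 59.2 CPM with Neg1 and 47.1 and 59.7 CPM with Neg2 at 2 h and 70.3 and 65.5 CPM with Neg1 and 73.1 and 68.3 CPM with Neg2 at 4 h, a log2 fold change of 0.30 ± 0.067. Neg2 2 h replicate 1 was the low RXRB library; the other 3 at 2 h lay within 58.6 to 59.7 CPM, and the log2 fold change was 0.23 without it.

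SAT2, of the spermidine acetyltransferase family (ENSG00000141504, chr17:7626234-7627876, minus strand), ran from 9.63 to 11.2 CPM at 2 h and 12.7 to 14.7 CPM at 4 h (log2 fold change 0.42 ± 0.10). The endosomal adaptor TOM1L2 (ENSG00000175662, chr17:17843511-17972422, minus strand) ran from 3.17 to 4.79 and 4.97 to 6.10 CPM (0.58 ± 0.14), the largest log2 fold change of the 6 genes and at the lowest level. ZNF589, a KRAB zinc finger gene (ENSG00000164048, chr3:48241100-48299253, plus strand), and PRKCSH, the beta subunit of the endoplasmic reticulum glucosidase II (ENSG00000130175, chr19:11435288-11450968, plus strand), had log2 fold changes of 0.28 ± 0.065 and 0.24 ± 0.062, the latter 0.16 without Neg2 2 h replicate 1. In DMSO at 4 h, SCPEP1 (20.3 ± 0.748 CPM), SAT2 (12.8 ± 0.961 CPM) and PRKCSH (136 ± 4.64 CPM) were nearer to the 4 h control compounds, and TOM1L2 (3.93 ± 0.349 CPM) and RXRB (59.8 ± 2.93 CPM) nearer to the 2 h ones (SD, n = 3). ZNF589 (48.005 CPM in DMSO, 44.2 and 53.5 CPM with the control compounds at 2 h and 4 h) was also nearer to 2 h. So was GPR89B (12.8 CPM, against 13.7 and 10.2 CPM). For most of the genes of smallest p, the DMSO mean at 4 h was thus nearer to the 2 h mean. The exceptions were SCPEP1, SAT2, PRKCSH and KLF12 (103 CPM, against 115 and 95.5 CPM). Against DMSO at 4 h no gene was called for the control compounds at 4 h (0.0%; 1177 at an unadjusted p under 0.05, 6.63%), and none for DMSO at 4 h against the control compounds at 2 h (0.0%; 985, 5.55%; edgeR); these comparisons share libraries with each other and with the time comparison.

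**Figure D3:**
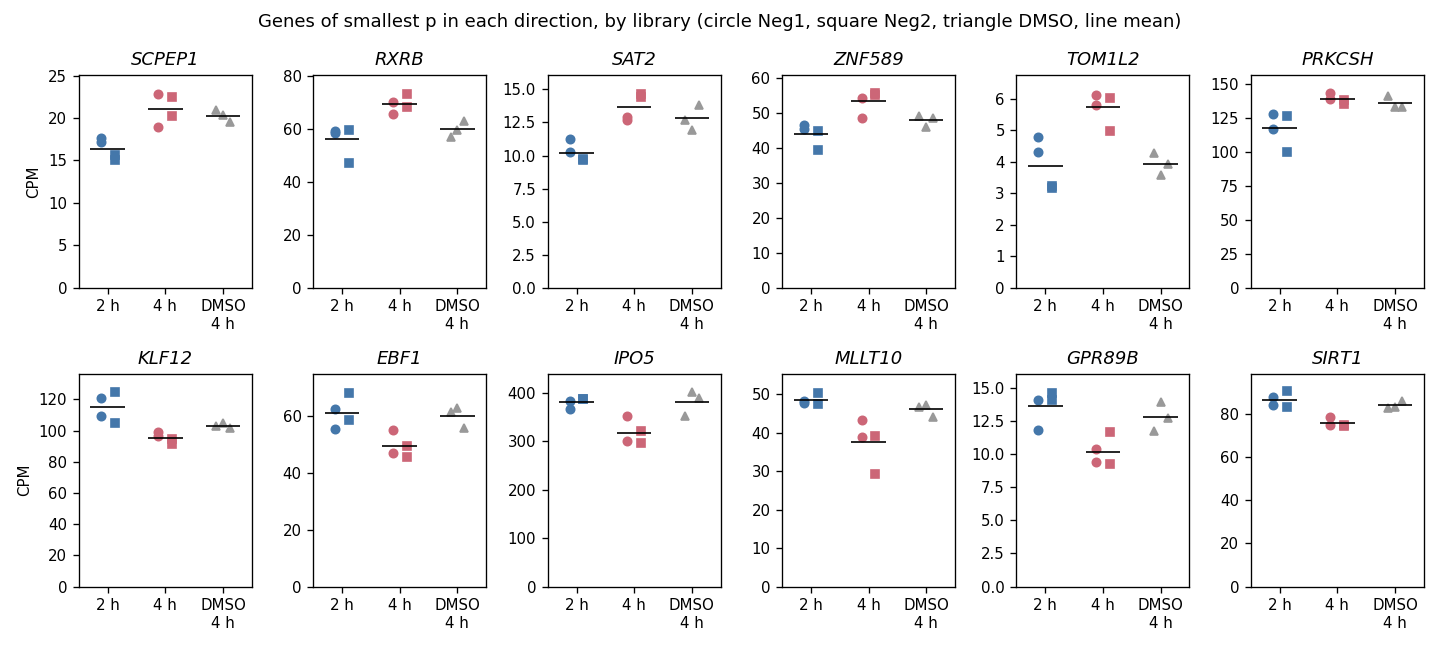
Level in CPM (linear axis from 0) of the 6 genes of smallest p higher at 4 h (top) and the 6 lower (bottom), 1 point for each library, with the group mean as a line (circle Neg1, square Neg2, triangle DMSO). The choice of the 12 genes required that the 4 libraries at 4 h lie apart from the 4 at 2 h. For EBF1 the means are 61.3 and 49.4 CPM and DMSO at 4 h is at 60.1 CPM.

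RPL21P16, a processed copy of the ribosomal protein gene RPL21 on chromosome 10, was the most extreme of the 5 genes that DESeq2 called. It was listed at 65.8 and 23.5 CPM with Neg1 and 127 and 0.574 CPM with Neg2 at 2 h, and at 0 and 0 CPM with Neg1 and 0 and 1.14 CPM with Neg2 at 4 h. In DMSO at 4 h it was at 70.4 ± 4.88 CPM. A read of such a copy matches several genes, and the 2 h libraries ranged from 0.574 to 127 CPM among themselves, so its estimated counts are uncertain. MTATP6P1, a nuclear copy of the mitochondrial gene MT-ATP6, was at 55.8 and 58.7 CPM with Neg1 and 84.7 and 55.5 CPM with Neg2 at 2 h, and at 48.3 and 42.6 CPM with Neg1 and 40.6 and 48.1 CPM with Neg2 at 4 h. Its highest library was again Neg2 2 h replicate 1, which also had the largest share of mitochondrial mRNAs of the 8 libraries (5.84%). Reads of this copy may match MT-ATP6 as well, so its estimated counts are uncertain too. In DMSO at 4 h MTATP6P1 was at 65.2 ± 6.42 CPM (SD, n = 3), near its 2 h mean with the control compounds (63.7 CPM) and above its 4 h mean (44.9 CPM).

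The genes of the handling response were near their 2 h level at 4 h. FOS, a subunit of the AP-1 factor, had 9.92 and 7.47 CPM with Neg1 and 4.58 and 5.26 CPM with Neg2 at 2 h and 5.15 and 7.29 CPM with Neg1 and 5.06 and 4.84 CPM with Neg2 at 4 h. These ranges overlapped, and the log2 fold change was -0.24 ± 0.15 (interval -0.54 to 0.071). EGR1, a zinc finger factor of the growth factor response, averaged 132 ± 17.1 CPM at 2 h and 133 ± 21.7 CPM at 4 h (SD, n = 4), and the interval of its log2 fold change was -0.26 to 0.26. JUN was at 16.6 ± 1.296 and 16.2 ± 1.51 CPM, and IER2 at 187 ± 12.3 and 181 ± 7.82 CPM (SD, n = 4), with log2 fold changes of -0.039 ± 0.094 and -0.044 ± 0.046. DUSP1, a phosphatase of the MAP kinases, was too low for a tight bound: 2.12 to 3.40 CPM at 2 h and 2.23 to 3.46 CPM at 4 h, interval -0.48 to 0.68. Of 40 listed immediate early genes 35 were tested and none was called. Their median log2 fold change was -0.039, beside 0.0016 for all genes tested. FOSB, another AP-1 subunit, had the lowest value of the list, at 4.28 ± 2.29 CPM at 2 h and 1.96 ± 0.471 CPM at 4 h (SD, n = 4), a log2 fold change of -1.06 ± 0.31 with no overlap (edgeR adjusted p 0.538).

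MYC, the growth regulator with a short-lived mRNA, was at 129.98 and 146 CPM with Neg1 and 129 and 138 CPM with Neg2 at 2 h and at 128 and 137 CPM with Neg1 and 126 and 128 CPM with Neg2 at 4 h. The values interleaved, and the interval of the log2 fold change was -0.22 to 0.088. Its targets in ribosome biogenesis had 36 members tested and none called, with a median of -0.011; NCL, which encodes nucleolin, stood at 1562 ± 74.4 and 1559.9 ± 46.8 CPM, and UTP20, a processome subunit, had the lowest value (-0.17 ± 0.070).

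Nutrient and stress sensors gave small values. TXNIP, a target of the glucose sensor MondoA, was at 102 and 108 CPM with Neg1 and 101 and 105 CPM with Neg2 at 2 h and 94.7 and 107 CPM with Neg1 and 96.4 and 99.3 CPM with Neg2 at 4 h, an interval of -0.18 to 0.053. DDIT4, an inhibitor of the growth kinase mTORC1 that answers stress and energy loss, was at 82.8 and 80.4 CPM with Neg1 and 74.3 and 78.7 CPM with Neg2 at 2 h. All its 4 h libraries were higher, at 89.6 and 87.2 CPM with Neg1 and 94.5 and 91.5 CPM with Neg2, a log2 fold change of 0.20 ± 0.084 (edgeR adjusted p 0.586); DMSO at 4 h lay at 84.3 ± 7.34 CPM. ATF4 targets had 31 members tested, none called and a median of 0.048, with 24 above 0. ASNS, asparagine synthetase, averaged 180.1 ± 6.93 and 186 ± 6.795 CPM, and the stress factor DDIT3 averaged 33.3 ± 5.57 and 33.7 ± 1.07 CPM. CTH, the cystathionine lyase of cysteine synthesis, had the highest value of the list, 16.8 ± 1.18 CPM at 2 h and 20.4 ± 0.3805 CPM at 4 h with no overlap (log2 fold change 0.28 ± 0.10), and PSAT1, of serine synthesis, had 177 ± 4.399 and 192 ± 5.08 CPM with no overlap (0.12 ± 0.054). Of 35 genes of glycolysis and hypoxia none was called. GAPDH was at 6462 ± 171 and 6278 ± 216 CPM, VEGFA, the vascular growth factor, at 24.7 ± 1.26 and 27.8 ± 2.02 CPM, and INSIG2 at 11.3 ± 0.612 and 14.1 ± 1.13 CPM (SD, n = 4 at each time), the last 2 without overlap.

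No chaperone or temperature gene passed the test. HSPA1A, the inducible cytosolic HSP70, was at 25.2 and 22.5 CPM with Neg1 and 20.2 and 18.2 CPM with Neg2 at 2 h and 23.1 and 27.2 CPM with Neg1 and 27.2 and 26.9 CPM with Neg2 at 4 h, with a log2 fold change of 0.29 ± 0.16. Its near-identical copy HSPA1B was at 221 ± 24.5 and 272 ± 33.2 CPM (0.30 ± 0.11), and reads of the pair cannot be fully told apart. HSPA8, the constitutive form, was at 1643 ± 88.7 and 1607 ± 97.1 CPM (SD, n = 4), interval -0.15 to 0.082. The heat shock list had 19 members tested, none called and a median of 0.014. CIRBP, the cold-inducible RNA-binding protein gene, was at 106 and 103 CPM with Neg1 and 76.2 and 98.7 CPM with Neg2 at 2 h and at 108 and 103 CPM with Neg1 and 109 and 109.8 CPM with Neg2 at 4 h. Its low library was Neg2 2 h replicate 1: the log2 fold change of 0.17 ± 0.068 was 0.079 without that library. The 5 cold shock genes had a median of -0.021, and the 21 genes of the unfolded protein response a median of 0.025, with none called.

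No sterol gene passed the test. HMGCS1, which makes HMG-CoA for sterol synthesis, had 379 and 367 CPM with Neg1 and 455 and 377 CPM with Neg2 at 2 h and 390.04 and 374 CPM with Neg1 and 393 and 358 CPM with Neg2 at 4 h. The one high library was Neg2 2 h replicate 1, and the interval of the log2 fold change was -0.18 to 0.068, with an estimate of -0.057 that was 0.014 without that library. INSIG1, the sterol-sensing retention factor, had 282 ± 21.3 CPM at 2 h and 269.8 ± 12.8 CPM at 4 h (SD, n = 4). Of 25 sterol genes tested all lay within 0.25 of no difference, 13 above 0 and 12 below, and the median was 0.012.

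Among the p53 and cell cycle genes none was called. CDKN1A, the p21 inhibitor of cyclin-dependent kinases, was at 19.3 and 19.9 CPM with Neg1 and 17.1 and 20.7 CPM with Neg2 at 2 h and at 19.5 and 20.6 CPM with Neg1 and 18.95 and 22.98 CPM with Neg2 at 4 h. MDM2, the ubiquitin ligase of p53, was at 238 and 229 CPM with Neg1 and 263 and 231 CPM with Neg2 at 2 h and 225 and 235 CPM with Neg1 and 225 and 218 CPM with Neg2 at 4 h, and the highest of the 8 was Neg2 2 h replicate 1. Neither passed the test, with log2 fold changes of 0.090 ± 0.10 and -0.089 ± 0.046, which were 0.024 and -0.040 without Neg2 2 h replicate 1. The 25 tested p53 targets had a median of 0.040. For G2/M, cyclin B1 (CCNB1) averaged 290.2 ± 10.8 and 277 ± 6.08 CPM, and the mitotic kinase PLK1 averaged 199.9 ± 7.55 and 206 ± 5.54 CPM (SD, n = 4). All 40 G2/M genes lay within 0.25 of no difference, and their median was 0.024. For G1/S, CCNE2 (cyclin E2) averaged 40.2 ± 2.31 and 40.5 ± 2.197 CPM, with an interval of -0.13 to 0.15. The 35 listed G1/S genes had a median of -0.031, with 12 above 0, 23 below and 32 within 0.25. CCND2 had the lowest log2 fold change of the list (-0.72) and GINS2 the highest (0.068). UHRF1, which helps maintain DNA methylation, spread widely at 2 h (86.1 ± 36.2 CPM) and less at 4 h (58.5 ± 5.296 CPM, SD, n = 4), and RRM2, of ribonucleotide reductase, was at 225 ± 24.4 and 176 ± 18.2 CPM without overlap (log2 fold change -0.35 ± 0.18). CDKN1B, which encodes the p27 inhibitor, had 31.9 to 34.0 CPM at 2 h and 35.0 to 39.2 CPM at 4 h (log2 fold change 0.16 ± 0.077; edgeR adjusted p 0.634).

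The germinal centre genes had few values far from 0. BCL6, the master repressor of the germinal centre state, was at 407 and 387 CPM with Neg1 and 369 and 367 CPM with Neg2 at 2 h and at 393 and 398 CPM with Neg1 and 362 and 356 CPM with Neg2 at 4 h. Both times had the same order of compounds, Neg1 above Neg2, and the interval of the log2 fold change over time was -0.10 to 0.060. The sphingosine receptor gene S1PR2 was at 230.3 ± 13.6 and 229.8 ± 5.56 CPM (SD, n = 4). Of 26 germinal centre genes tested none was called, 24 lay within 0.25, EBF1 was the lowest and KLHL14 the highest. Without overlap, 2 of the 26 lay higher at 4 h and 3 lower, beside 2.35% and 2.06% of all genes tested. KLHL14, a Kelch-family gene, was at 1.40 ± 0.36 CPM at 2 h and 2.16 ± 0.332 CPM at 4 h (SD, n = 4) without overlap, a log2 fold change of 0.64 ± 0.35 (interval -0.089 to 1.36) at a low level. MS4A1, which encodes CD20, was at 534 ± 32.2 CPM at 2 h and 486 ± 13.4 CPM at 4 h without overlap (log2 fold change -0.14 ± 0.044, edgeR adjusted p 0.538), and -0.094 without Neg2 2 h replicate 1. GNA13, a G protein subunit that confines germinal centre B cells, was at 424 ± 36.5 and 383 ± 8.61 CPM, also without overlap (-0.15 ± 0.051, and -0.085 without that library). The 27 B cell receptor and surface genes had a median of -0.031. The activation marker CD69 was at 31.7 ± 2.11 and 27.9 ± 3.36 CPM, the chemokine receptor gene CXCR4 at 279 ± 10.96 and 273 ± 8.91 CPM, and the NF-kB inhibitor gene NFKBIA at 69.5 ± 5.601 and 76.3 ± 4.73 CPM (SD, n = 4). Their log2 fold changes were -0.19 ± 0.10, -0.028 ± 0.047 and 0.13 ± 0.065, the last 0.071 without Neg2 2 h replicate 1.

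HEXIM1, which encodes the protein that holds the elongation kinase P-TEFb inactive, had the smallest unadjusted p of the 28 response and identity genes that were listed whatever their values. It was at 24.7 and 18.7 CPM with Neg1 and 20.4 and 23.1 CPM with Neg2 at 2 h, and at 29.2 and 26.3 CPM with Neg1 and 24.996 and 26.1 CPM with Neg2 at 4 h, with DMSO at 4 h at 25.6 ± 0.633 CPM (SD, n = 3). The times did not overlap, the log2 fold change was 0.29 ± 0.11 (interval 0.065 to 0.52) and the adjusted p was 0.546 (edgeR). CDK9, the kinase itself, was at 45.5 ± 1.22 and 46.7 ± 3.47 CPM, and its cyclin gene CCNT1 at 111 ± 7.13 and 107 ± 3.89 CPM. The 13 tested genes of P-TEFb and its regulators had a median log2 fold change of -0.016, with AFF1 lowest (-0.47) and ELL2 highest (0.54). None of the 13 was called. Without overlap, 2 lay higher at 4 h and 2 lower, beside 2.35% and 2.06% of all genes tested. Of the genes of cell death, BCL2L11, which encodes BIM, had 144 ± 5.41 CPM at 2 h and 142 ± 5.37 CPM at 4 h, and PMAIP1, which encodes NOXA, 60.8 ± 5.43 and 60.2 ± 2.902 CPM (SD, n = 4). The 13 pro-apoptotic genes lay within 0.25 of no difference, with a median of 0.037.

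**Figure D4:**
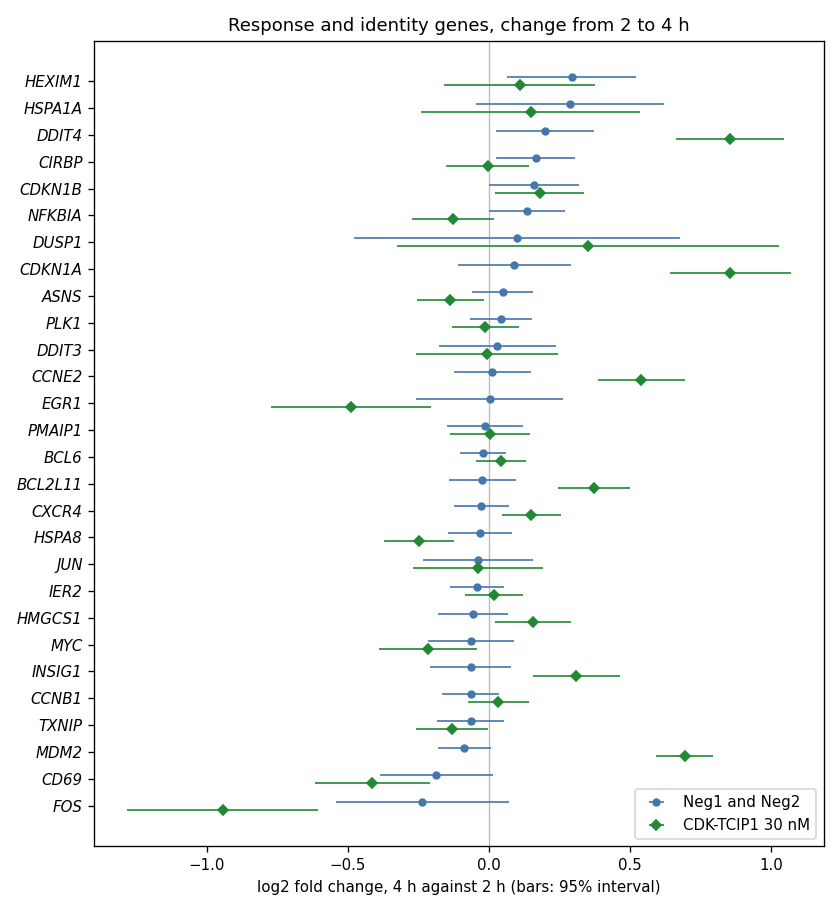
Log2 fold change from 2 to 4 h with its 95% interval for 28 response and identity genes, with the control compounds (circles, 4 against 4 libraries) and with CDK-TCIP1 at 30 nM (diamonds, 3 against 4 libraries). With the control compounds HEXIM1 is highest at 0.29 and FOS lowest at -0.24; with CDK-TCIP1 MDM2 is at 0.69 and FOS at -0.94.

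Of the 31 gene lists none had a called member, and their medians lay between -0.18 and 0.089. The mitochondrially encoded mRNAs, which code for respiratory chain subunits, stood at the low end: 12 of 13 had a log2 fold change below 0, and 11 had an unadjusted p under 0.05, where 7.86% of all genes did. MT-CO1, of complex IV, was at 15943 ± 1624 CPM at 2 h and 14140.0 ± 322 CPM at 4 h, and MT-ND4, of complex I, at 5279.8 ± 692 and 4517 ± 102 CPM (SD, n = 4). MT-ATP8, of the ATP synthase, was at 90.8 ± 8.37 and 73.3 ± 7.13 CPM without overlap, the lowest log2 fold change of the list (-0.31 ± 0.083). MT-ND3, of complex I, was the one above 0 (0.36 ± 0.13, and 0.22 without Neg2 2 h replicate 1). The list's median was -0.13 without that library, and the summed share of these mRNAs was 5.27 ± 0.446% at 2 h against 4.79 ± 0.0728% at 4 h (SD, n = 4). The 2 h share ran from 4.75 to 5.84%, overlapped the 4 h range of 4.73 to 4.87%, and gave an exact permutation p of 0.0857 (two-sided, adjusted 0.419 over 11 library measures). With DMSO at 4 h the share of these mRNAs was 5.12, 5.26 and 4.74% in replicates 1, 2 and 3. Most of these mRNAs are cut from shared polycistronic transcripts, so the 13 are not separate observations.

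The ribosomal protein genes, which build the cytosolic ribosome, had 37 of 46 above 0 and a median of 0.082, which was 0.025 without Neg2 2 h replicate 1. RPL22 was highest, at 251 ± 42.9 and 300.0 ± 20.1 CPM (SD, n = 4; log2 fold change 0.26 ± 0.084, and 0.12 without that library), and RPL4 lowest, at 2766 ± 126 and 2629 ± 87.9 CPM (-0.073 ± 0.041). The median of all genes moved by less than 0.01 when that library was left out (from 0.0016 to 0.0078). Interferon-stimulated genes had the highest median, 0.089 over 32 tested, but a median standard error of 0.18, and their extremes HERC5 (-0.78 ± 0.55) and IFIT3 (0.42 ± 0.37) were at about 1 CPM or less. TAP1, the peptide transporter gene, was the one member without overlap, at 39.6 ± 1.797 and 44.7 ± 1.85 CPM. Of all genes tested, 2.35% were higher at 4 h without overlap.

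**Figure D5:**
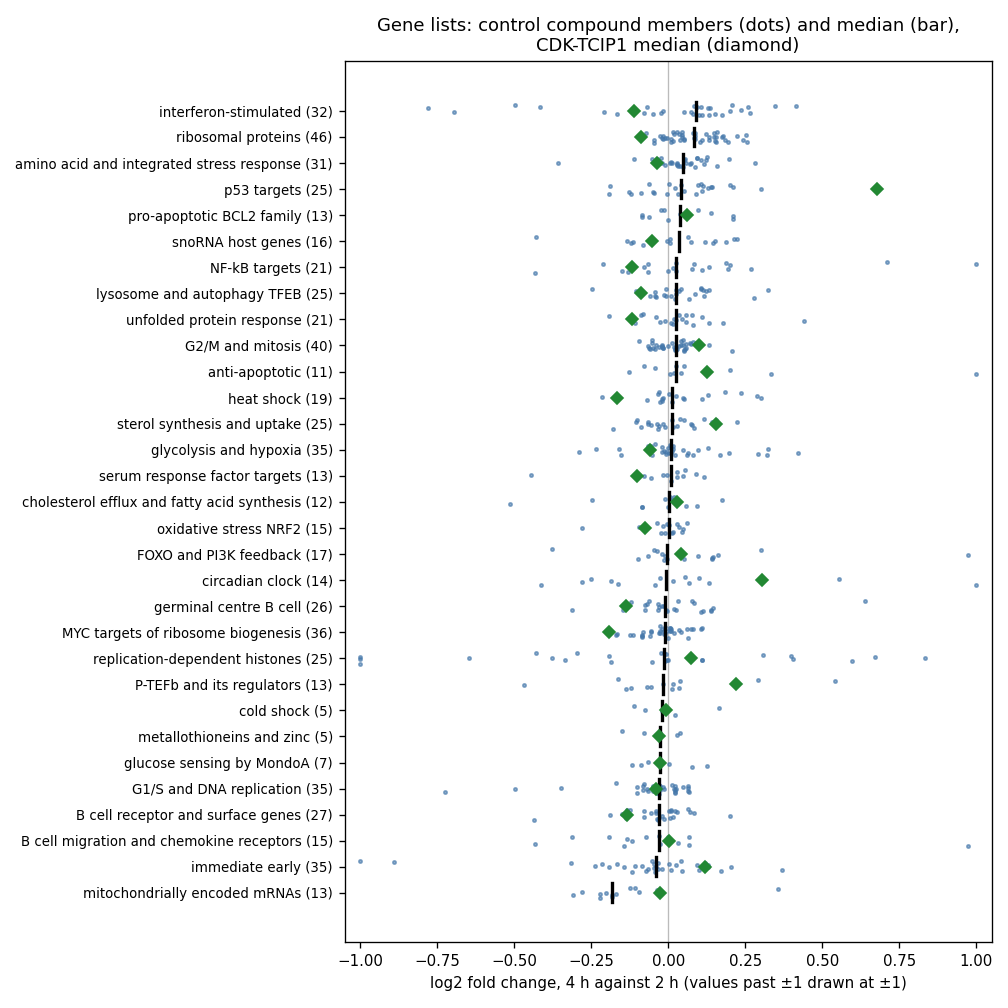
Log2 fold change from 2 to 4 h for each tested member of 31 gene lists with the control compounds (dots; bar, list median; number tested in brackets) and the list median with CDK-TCIP1 at 30 nM (diamond). Medians with the control compounds run from -0.18 for mitochondrial mRNAs to 0.089 for interferon-stimulated genes, while the p53 targets stand at 0.040 with the control compounds and 0.68 with CDK-TCIP1.

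None of the 11 library measures tested separated the times completely. The exact permutation test of 4 against 4 cannot give a p below 0.0286, and over 11 measures the smallest was 0.0571, for the share of counts in transcripts annotated for nonsense-mediated decay (2.40 ± 0.0131% at 2 h, 2.36 ± 0.0205% at 4 h; two-sided). Retained-intron transcripts held 3.08 ± 0.0572% and 2.99 ± 0.0707% of counts (SD, n = 4; exact permutation p = 0.114). Genes with at least 10 counts numbered 14380 to 14687 per library at 2 h and 14034 to 14802 at 4 h. Every adjusted p of the 11 was at least 0.419.

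Neg1 and Neg2 were compared with each other at the matched dose of 30 nM, which made 2 comparisons of levels and 1 of the time change. At 2 h no gene was called between them (0.0%; 1126 at an unadjusted p under 0.05, 6.35%), and at 4 h none (0.0%; 464, 2.62%; edgeR). The interval of the difference lay within 0.5 of 0 on the log2 scale for 78.9% of the 10086 genes at 2 h and 81.4% at 4 h, so larger differences remain possible for the rest. With Neg1 alone no gene was called between 2 and 4 h (0.0%; 660 unadjusted, 3.72%), and with Neg2 alone none (0.0%; 1667 unadjusted, 9.4%). The difference of these time changes had 0 calls (0.0%; 898 unadjusted, 5.06%). EBF1 had a log2 fold change of -0.21 with Neg1 and -0.42 with Neg2, KLF12 -0.23 and -0.30, and SCPEP1 0.26 and 0.48. The 12 genes of smallest p had the same sign with both compounds, which was fixed by choosing them without overlap between the times. Each was farther from 0 with Neg2, whose 2 h pair includes the library that stood apart. That library bore on the counts. Without it no gene was called and 854 had an unadjusted p under 0.05. Without its partner, Neg2 2 h replicate 2, so that it stood alone for its group, 113 genes were called (101 higher, 12 lower), and 316 with Neg2 alone, under the assumption that the lone library varies like the other groups.

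Between the same times, many genes changed in cells given CDK-TCIP1 at 30 nM. Of the genes tested 3888 were called (21.9%), 1828 higher (10.3%) and 2060 lower (11.6%), and the time change differed from that with the control compounds for 2126 genes (12%), 996 higher (5.61%) and 1130 lower (6.37%; edgeR). With counts scaled by transcript length these totals were 1882 and 618. Of 25 p53 targets 22 rose and 1 fell with CDK-TCIP1, and for 20 the time change was higher than with the control compounds, 0 lower. MDM2 rose from 239 ± 11.9 CPM (SD, n = 4) to 386 ± 11.5 CPM (SD, n = 3), a time change above that of the control compounds by 0.78 ± 0.067 on the log2 scale (edgeR adjusted p 6.75e-08). CDKN1A rose from 14.8 ± 1.56 to 26.8 ± 2.86 CPM, a difference of 0.76 ± 0.14 (edgeR adjusted p 0.00087). ZMAT3, an RNA-binding p53 target, had a time change of -0.12 with the control compounds and 0.69 with CDK-TCIP1, and the pro-apoptotic BBC3 0.21 (0.061 without Neg2 2 h replicate 1) and 1.30.

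Several stress and identity genes also differed in their time change. DDIT4 rose from 39.1 ± 5.08 to 70.8 ± 8.87 CPM with CDK-TCIP1, below its level with the control compounds on average at both times; the difference of the changes was 0.65 ± 0.13 (edgeR adjusted p 0.00112). FOS fell from 8.17 ± 0.504 to 4.25 ± 0.389 CPM, a difference of -0.71 ± 0.22 (edgeR adjusted p 0.0353). BCL2L11 rose from 149 ± 6.28 to 194 ± 10.02 CPM, a difference of 0.40 ± 0.085 (adjusted p 0.00285), CCNE2 differed by 0.53 ± 0.10 (adjusted p 0.00109) and INSIG1 by 0.37 ± 0.10 (adjusted p 0.0169, edgeR). CCNE2 went from 19.0 to 27.6 CPM with CDK-TCIP1, below the control compounds on average at both times (40.2 and 40.5 CPM). INSIG1 went from 249.9 to 309.7 CPM, against 282 and 269.8 CPM with the control compounds. SERPINA9, a germinal centre serpin, was at 162 ± 8.299 and 158 ± 6.84 CPM with the control compounds, a time change of -0.034, against -1.34 with CDK-TCIP1 (adjusted p of the difference 1.26e-08, edgeR). Of 26 germinal centre genes 10 had a lower time change with CDK-TCIP1, beside 6.37% of all genes tested, and 2 a higher one, near the 5.61% of all genes. In BCL6 the changes did not differ past the threshold, by 0.063 ± 0.058 (95% interval -0.058 to 0.18), and in PMAIP1 by 0.016 ± 0.094 (-0.18 to 0.21), JUN by 0.00025 ± 0.16 (-0.33 to 0.33) and IER2 by 0.061 ± 0.067 (-0.078 to 0.20). The mitochondrial mRNAs had no member that differed in either direction, and the ribosomal protein genes had 1, lower.

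The CDK-TCIP1 libraries share no sample with the control compound libraries, so the genes separated by time in the latter could be read in them. The calls are not fully independent of the choice, since 1 fit of all 23 libraries estimated the spread of each gene. Genes chosen without overlap may also vary less between libraries. The shares of all genes given beside them are therefore not a fully like baseline, and this was not tested. Of the 287 genes higher at 4 h without overlap, 78 rose with CDK-TCIP1 (27.2%, beside 16.9% of all genes at that level) and 36 fell (12.5%, beside 19.1%). Of the 257 lower genes, 77 fell (30.0%, beside 19.1%) and 43 rose (16.7%, beside 16.9%). KLF12 fell with CDK-TCIP1 from 149.6 ± 7.47 to 101 ± 3.12 CPM (log2 fold change -0.56 ± 0.058, edgeR adjusted p 1.58e-07), and EBF1 from 80.2 ± 5.96 to 50.6 ± 1.52 CPM (-0.66 ± 0.071, adjusted p 2.85e-07, edgeR). Both began above the control compound means at 2 h (115 and 61.3 CPM) and ended near those at 4 h (95.5 and 49.4 CPM). RXRB rose from 51.3 ± 4.13 to 62.1 ± 2.64 CPM (0.27 ± 0.073, edgeR adjusted p 0.00707). SIRT1 and GPR89B, lower at 4 h with the control compounds, rose with CDK-TCIP1 by 0.41 ± 0.055 and 0.51 ± 0.12 (edgeR adjusted p 6.38e-06 and 0.00341). SIRT1 went from 53.9 to 71.6 CPM and GPR89B from 5.33 to 7.57 CPM with CDK-TCIP1. Their means stayed below those of the control compounds at both times (86.5 and 75.6 CPM for SIRT1, 13.7 and 10.2 CPM for GPR89B). The other 7 of the 12 genes did not pass the test there, SCPEP1 among them (-0.14 ± 0.083).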

How the data were processed

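Poly(A) RNA of SUDHL5 cells was sequenced in paired ends, per the labels' protocols. The submitters' processing notes name FastQC, cutadapt, kallisto and DESeq2. Versions, strand setting and transcript set: not given in the sources used here. For each library the authors deposited estimated counts and TPM per transcript, per the file headers; TPM served only in the length-scaled alternative. An ambiguous read is split in estimated counts, so near-identical copies are uncertain. They were summed per gene through GENCODE 29 (GRCh38; the authors' annotation may differ) and rounded; unmatched transcripts held 1.21 to 1.24% of counts in the 8 control compound libraries and were left out.

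Groups came from the sample titles. Genes passing the filterByExpr rule (17743) were tested by the quasi-likelihood F test of edgeR (4.0.16, in R 4.3.3) with TMM, in 1 fit of all 23 libraries with a coefficient for each of 9 groups (14 residual degrees of freedom). The contrast was the mean of Neg1 and Neg2 at 4 h minus their mean at 2 h. Benjamini-Hochberg adjustment ran over all genes tested, and called, rose and fell mean an adjusted p under 0.05. Values after ± are standard errors for log2 fold changes (fold change over the square root of F) and SD for CPM. Fold changes are relative to the bulk of genes and cannot show a global shift of mRNA. Library summaries were compared by exact permutation (70 splits). Since the labels do not give the origin of replicates, p-values measure the spread between libraries alone, which may be technical.

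The members, gene lists and named genes were chosen with earlier results of these data known. Named were called protein-coding genes with the largest changes, and, where too few were called, those of smallest p up to 6 each way at an average log2 CPM of 2 or more, plus 28 listed genes (1 more is not reported here); list members outside the rule were chosen after their values were seen. Replicate numbers were not used as pairs in the main fit: deviations of same-numbered libraries correlated from -0.117 to 0.156. With 2 libraries in each group the deviations mirror each other, so this check is weak and cannot exclude pairing. Alternatives were DESeq2 (1.42.0) and its size factors, no filter, length scaling, the control libraries alone, pooled compounds, a replicate block and leaving out each library.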

Additional observations from a re-analysis of the deposited data

Results flagged for a closer look

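Single libraries stood apart from the other 3 of their time in 8 of the 102 groups of 4 examined by Dixon's criterion, where chance alone gives about 1 in 20. At 2 h the lowest RXRB level was 47.1 CPM against 58.6 for the next, and the highest HMGCS1 level was 455 CPM against 379 for the next, both in Neg2 2 h replicate 1. That library also had the lowest share of counts in histone genes at 2 h, 0.00675% against 0.00738%. At 4 h the highest histone share was 0.00782% in Neg2 replicate 2, against 0.00729%. At 4 h the highest SIRT1 level was 78.4 CPM and the highest FOS level 7.29 CPM, both in Neg1 replicate 2. The lowest DUSP1 level at 4 h was 2.23 CPM, in Neg2 replicate 1, and the lowest HSPA1A level 23.1 CPM, in Neg1 replicate 1.

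The time change differed between CDK-TCIP1 and the control compounds for 2126 genes by the test of the difference itself (edgeR). Among the 28 listed genes these were MDM2, higher with CDK-TCIP1 by 0.78 ± 0.07 on the log2 scale (edgeR adjusted p 6.75e-08), CDKN1A by 0.76 ± 0.14 (0.00087), DDIT4 by 0.65 ± 0.13 (0.00112), CCNE2 by 0.53 ± 0.10 (0.00109), BCL2L11 by 0.40 ± 0.08 (0.00285) and INSIG1 by 0.37 ± 0.10 (0.0169). FOS differed by -0.71 ± 0.22 (0.0353). These values are for the time change and not for levels: DDIT4 and CCNE2 were on average below the control compounds at both times.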

How the results depend on the processing

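The absence of calls between 2 and 4 h held with DESeq2 size factors, length scaling, a replicate block (0 calls), the control libraries alone and pooled compounds. It also held in the control libraries alone with a block for each combination of compound and replicate number (0 calls). With no filter 196 genes were called (134 higher, 62 lower), all of which had passed the filter; there the estimated prior degrees of freedom were infinite and 38466 genes entered. DESeq2 called 5. For Neg1 alone no filter gave 64 and DESeq2 1, for Neg2 alone 223 and 16, for Neg1 against Neg2 at 2 h 143 and 1 and at 4 h 47 and 1, and for the difference of their time changes no filter gave 106. Leaving out 1 library gave 0 to 113 calls for the time comparison (113 without Neg2 2 h replicate 2, 1 without Neg1 4 h replicate 2, otherwise 0), 0 to 2 for Neg1, 0 to 316 for Neg2, 0 to 21 for the difference, and 0 to 83 at 2 h and 0 to 1 at 4 h for Neg1 against Neg2. With length scaling, CDK-TCIP1 had 1882 calls over time and its difference from the control compounds 618; the replicate block gave 3499 and 1924. The cause was not tested.

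EGR1, at 0 within its error, had a log2 fold change of -0.0004027 with DESeq2 size factors, -0.002314 with length scaling, -0.0003944 with DESeq2 and -0.0002637 in the control libraries alone. Leaving out 1 library turned the sign of EGR1 (-0.057 to 0.058), JUN (-0.12 to 0.037), CCNE2 (-0.032 to 0.055), HSPA8 (-0.071 to 0.0081), PMAIP1 (-0.080 to 0.061), DDIT3 (-0.062 to 0.14), HMGCS1 (-0.12 to 0.014), CXCR4 (-0.058 to 0.0049) and DUSP1 (-0.073 to 0.26). Of the named genes' other values, 598 kept their direction and side of the threshold and 17, of 9 genes, passed it. Library summaries at 4 h minus 2 h ranged without 1 library from -1.46e+06 to 3.26e+05 for total counts, -0.00752 to 0.00227% for unmatched counts, -4.35e-05 to 0.000196% for histone genes, -0.00617 to 0.0302% for lincRNAs, -351.1 to -95.1 for genes detected, -0.647 to -0.285% for mitochondrial mRNAs and -0.0427 to -0.026% for decay transcripts; the last 3 passed the unadjusted threshold of the exact permutation test in 1 case each. Low genes, such as DUSP1, had wide intervals at this depth.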
